A study of Mus musculus with 8 samples.

Results

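Messenger RNA of 41 mouse genes of glycolysis and of the response to low oxygen was followed in 8 RNA-sequencing libraries. The members were named as glycolytic enzymes, glucose and lactate carriers and genes of the hypoxia-inducible factor (HIF) pathway. The choice rule used no measured value, but it was made with earlier results of these data known. They were found by their GENCODE M21 symbols among the 46078 gene IDs counted in each library. All 41 were found, and all 41 passed the filter on low counts and were tested in all 6 comparisons between the 4 groups.

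The groups were 2 libraries each of tcESCs, tc;Sf1ESCs, SCLCs and tod-PGCLCs, all from mouse embryonic stem cell (ESC) lines labelled male and C57BL/6. tcESCs (XY;tesco-cfp) carry a cyan fluorescent reporter driven by the testis enhancer of Sox9. tc;Sf1ESCs (XY;tesco-cfp;Sf1) are 1 clone of them, selected with G418 for a construct that expresses Sf1, also named Nr5a1, without interruption. Both ESC lines were kept undifferentiated in serum-free N2B27 medium with the 2iLIF supplement. This holds LIF, the inhibitor PD0325901 and CHIR99021, which is also used in the differentiation below. SCLCs (XY;tesco-cfp;Sf1), or Sertoli cell-like cells, whose cell type the labels give as testicular somatic cell-like, were the cyan fluorescent cells sorted on day 12 from tc;Sf1ESCs differentiated first in MEIM medium with the Wnt activator CHIR99021 and the retinoic acid receptor agonist TTNPB, and then in RAG medium to which CHIR99021, BMP7 and FGF9 were added. tod-PGCLCs (XY;Prdm1-gfp), or testicular organoid-derived primordial germ cell-like cells, were green fluorescent cells sorted on day 6 from organoids, in which epiblast-like cells of another ESC line grew together with tc;Sf1 testicular somatic cell-like cells in RAG medium with CHIR99021. The epiblast-like cells had been made in N2B27 medium with bFGF, activin A and KSR. CHIR99021 was thus given to all the groups, and PD0325901 is named only for ESC medium. Cell type, medium, culture format, dissociation and sorting, and for tod-PGCLCs the ESC line, differ together between the groups and cannot be told apart. The oxygen level of the cultures is not given in the sources used here.

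Glycolysis splits glucose, taken up by carriers in the cell membrane, into pyruvate. Lactate dehydrogenase turns pyruvate into lactate, which leaves through other carriers. Pyruvate dehydrogenase instead commits pyruvate to oxidation inside the mitochondria, unless a pyruvate dehydrogenase kinase switches this enzyme off. When oxygen is plentiful, EGLN prolyl hydroxylases mark the alpha subunits of HIF and the VHL protein has them destroyed. When oxygen is low the subunits persist, pair with ARNT and bind DNA at a core of letters ACGTG beside genes of glycolysis, vessel growth, mitochondrial turnover and collagen synthesis. Much of that control acts on HIF protein, which RNA counts do not show. Sertoli cells of the testis are known to feed germ cells with lactate, and ESCs are known to use glycolysis strongly.

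Promoter windows of 7 members are shown, since the HIF core is the letter pattern that ties this pathway to its genes. They are the 250 bases before the RefSeq start on build GRCm38.p6, read 5′ to 3′ on the strand of the gene, and capitals mark every ACGTG on either strand (CACGT where it lies on the other strand). Adjoining capitals CACGTG hold the pattern on both strands and count as 1 match, and this palindrome is also the E-box read by MYC and USF factors. The examples are a glucose carrier, a lactate carrier, a pair of enzymes and 3 HIF targets, all with the pattern, and for a gene with several starts the window with the most matches was taken.
Slc2a1, chr4:119108495-119108744, plus strand: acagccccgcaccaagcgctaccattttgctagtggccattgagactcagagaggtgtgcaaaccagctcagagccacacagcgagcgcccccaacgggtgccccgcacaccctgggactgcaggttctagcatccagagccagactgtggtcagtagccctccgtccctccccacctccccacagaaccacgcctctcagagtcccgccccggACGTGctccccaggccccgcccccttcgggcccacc
Slc16a3, chr11:120948817-120949066, plus strand: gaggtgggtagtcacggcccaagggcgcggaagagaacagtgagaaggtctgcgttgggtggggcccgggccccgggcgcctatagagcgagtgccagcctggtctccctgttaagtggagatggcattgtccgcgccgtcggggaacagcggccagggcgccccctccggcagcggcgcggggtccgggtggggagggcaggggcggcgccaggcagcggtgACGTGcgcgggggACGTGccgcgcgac
Pgk1, chrX:106186850-106187099, plus strand: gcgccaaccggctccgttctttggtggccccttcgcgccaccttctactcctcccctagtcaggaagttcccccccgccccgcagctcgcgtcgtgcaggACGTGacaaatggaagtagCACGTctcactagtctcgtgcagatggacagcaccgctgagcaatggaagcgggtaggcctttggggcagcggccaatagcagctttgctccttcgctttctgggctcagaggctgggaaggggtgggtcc
Ldha, chr7:46845554-46845803, plus strand: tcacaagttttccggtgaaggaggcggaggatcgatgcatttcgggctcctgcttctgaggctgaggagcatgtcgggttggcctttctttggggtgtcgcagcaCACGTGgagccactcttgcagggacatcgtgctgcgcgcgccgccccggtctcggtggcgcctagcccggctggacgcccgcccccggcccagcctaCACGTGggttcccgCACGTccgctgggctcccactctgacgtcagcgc
Bnip3, chr7:138909507-138909756, minus strand: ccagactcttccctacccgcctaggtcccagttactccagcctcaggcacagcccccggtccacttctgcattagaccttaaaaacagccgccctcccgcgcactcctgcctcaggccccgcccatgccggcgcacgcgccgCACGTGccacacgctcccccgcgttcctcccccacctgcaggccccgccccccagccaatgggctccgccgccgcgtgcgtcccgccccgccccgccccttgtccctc
P4ha1, chr10:59323046-59323295, plus strand: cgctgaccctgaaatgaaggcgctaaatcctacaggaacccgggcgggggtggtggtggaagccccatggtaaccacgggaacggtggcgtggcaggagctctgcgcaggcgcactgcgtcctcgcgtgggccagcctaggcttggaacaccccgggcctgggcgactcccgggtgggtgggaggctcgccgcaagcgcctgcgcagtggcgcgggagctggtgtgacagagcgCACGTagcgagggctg
P4ha2, chr11:54100674-54100923, plus strand: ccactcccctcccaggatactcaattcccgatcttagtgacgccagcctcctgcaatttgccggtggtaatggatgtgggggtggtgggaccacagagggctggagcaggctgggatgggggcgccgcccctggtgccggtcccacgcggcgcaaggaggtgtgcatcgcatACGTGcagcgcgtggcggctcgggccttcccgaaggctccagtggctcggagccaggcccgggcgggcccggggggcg

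The Ldha window held 3 matches, the Slc16a3 and Pgk1 windows 2 each and the others 1 each. The match of P4ha1 began 16 bases before the start, that of Slc2a1 36, that of P4ha2 78 and that of Bnip3 108. RefSeq windows were found for 38 of the 41 members, and none for Slc2a3, Epas1 and Ndrg1. At least 1 window held the pattern in 23 of those 38 members (60.5%), against 24.2% of 11755 tested genes with a window and 18.5% of 27025 genes of the whole table. Among the 22 members whose SCLC and tod-PGCLC libraries all lay above the 4 ESC libraries it was found in 16 (72.7%), and among the 16 other members with a window in 7 (43.8%). Counted by window, the pattern was in 27 of 58 member windows (46.6%), against 20.9% of 14996 windows of tested genes. The members were listed as genes of glycolysis and the HIF pathway, so their share is not independent of that choice. These shares describe letters in a window, not binding of a factor.

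Depth was even, with 25411033 to 30680191 counts on genes in each library, so that 3 counts correspond to 0.0978 to 0.118 CPM (counts scaled to a library total of 1000000). The study says in general that experiments were replicated biologically, but no label ties the libraries to separate cultures, so the p-values measure the spread between 2 libraries a group, which may be partly technical. The chi-square of the replicates' counts per degree of freedom, which is near 1 where counting error alone separates them, was 4.06 in tcESCs, 1.44 in tc;Sf1ESCs, 30.9 in SCLCs and 9.92 in tod-PGCLCs. The labels were checked against markers. The 7 tested genes of chromosome Y had a median log2 difference of -2.63 in tod-PGCLCs over tcESCs. It was -4.33 over tc;Sf1ESCs and -4.04 over SCLCs, although all groups are labelled XY. Genes of chromosome X had medians of 0.25 and 0.28 in tod-PGCLCs over tcESCs and tc;Sf1ESCs. In tc;Sf1ESCs over tcESCs the Y median was 2.24. The reason for these differences was not tested. Nr5a1 had 1 and 0 counts in tcESCs, 52 and 30 in tc;Sf1ESCs, 341 and 535 in SCLCs and 6 and 5 in tod-PGCLCs. A list of 8 Sertoli markers summed to 477 and 470 CPM in SCLCs, to 119 and 145 in tod-PGCLCs and to between 14.5 and 18.7 in the ESCs, and 6 of the 7 tested were called higher in SCLCs than in tc;Sf1ESCs. Most of the SCLC sum was Gata4, which visceral endoderm is also known to express, with 11011 and 12551 counts against 47 to 184 in ESCs, while Sox9 had 206 and 130 against 0 to 8. Of the other two, Amh had 10 and 22 counts in SCLCs against 15 to 24 in ESCs and Dhh 5 and 1 against 5 to 24. A list of 10 visceral endoderm markers, cells of the early yolk sac, summed to 1767 and 3158 CPM in SCLCs, to 24.5 and 37.5 in tod-PGCLCs and to between 7.43 and 12.0 in the ESCs, with all 10 called higher in SCLCs than in either ESC line and 7 higher in tod-PGCLCs than in tcESCs. A list of 6 trophectoderm markers, cells of the early placenta, summed to 727 and 919 CPM in SCLCs, to 145 and 176 in tod-PGCLCs and to between 21.3 and 68.3 in the ESCs, with 4 of 5 tested called higher in SCLCs over tcESCs. In tod-PGCLCs over that line 2 of these were higher and 1 was lower. Muscle markers, with 3 of 3 tested called higher in tod-PGCLCs than in tcESCs, summed to 24.9 and 14.8 CPM in SCLCs, to 7.23 and 9.04 in tod-PGCLCs and to at most 1.06 in the ESCs. A list of 8 germ cell markers summed to 1047 and 1052 CPM in tod-PGCLCs and to between 412 and 560 elsewhere, although Nanos3 had 60 and 109 counts there and 236 and 251 in tc;Sf1ESCs. The part of these cell markers in the results that follow was not tested.

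More members were higher than lower in both sorted populations. A gene was called when its fold change was greater than 2 and its adjusted p under 0.05, with edgeR's quasi-likelihood test, the p-values being adjusted over all genes tested after Benjamini and Hochberg. Of the 41 members, 26 were called higher and 0 lower in SCLCs than in tcESCs, where 42.7% of all genes were called, 24.3% higher and 18.3% lower. For the count of 0, edgeR gave 6 members lower in SCLCs at an unadjusted p under 0.05 and 5 at an adjusted p under 0.05 without the fold limit, and DESeq2 also called 0 lower. Against tc;Sf1ESCs, the line SCLCs came from, 23 were called higher and 2 lower, with 42.2% of all genes called, 24.1% higher and 18.1% lower. tod-PGCLCs had 22 members higher and 1 lower than tcESCs, with 29.4% of all genes called, 18.1% higher and 11.2% lower. They had 20 higher and 4 lower than tc;Sf1ESCs, with 32.7% of all genes called, 19.4% higher and 13.3% lower. These 4 comparisons share their control libraries and are not separate evidence.

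The median log2 fold change of the 41 members was 1.5 in SCLCs over tcESCs and 1.27 over tc;Sf1ESCs, beside 0.05 and 0.02 for all genes tested. For tod-PGCLCs it was 1.16 over tcESCs and 0.96 over tc;Sf1ESCs, beside 0.03 and 0.01. In 22 of the 41 members all SCLC and tod-PGCLC libraries lay above all 4 ESC libraries, as they did for 22.0% of all genes, and 1 member, Hk1, lay below them all, as did 18.7% of genes. The summed level of the 41 members was 7961 to 8317 CPM in the ESC libraries, 15142 and 12536 in SCLCs and 17296 and 16068 in tod-PGCLCs. The sum is set mostly by Pkm, Slc2a3, Aldoa and other abundant enzymes. In these bulk libraries a smaller number of cells of a type and less RNA per cell cannot be told apart.

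**Figure D1:**
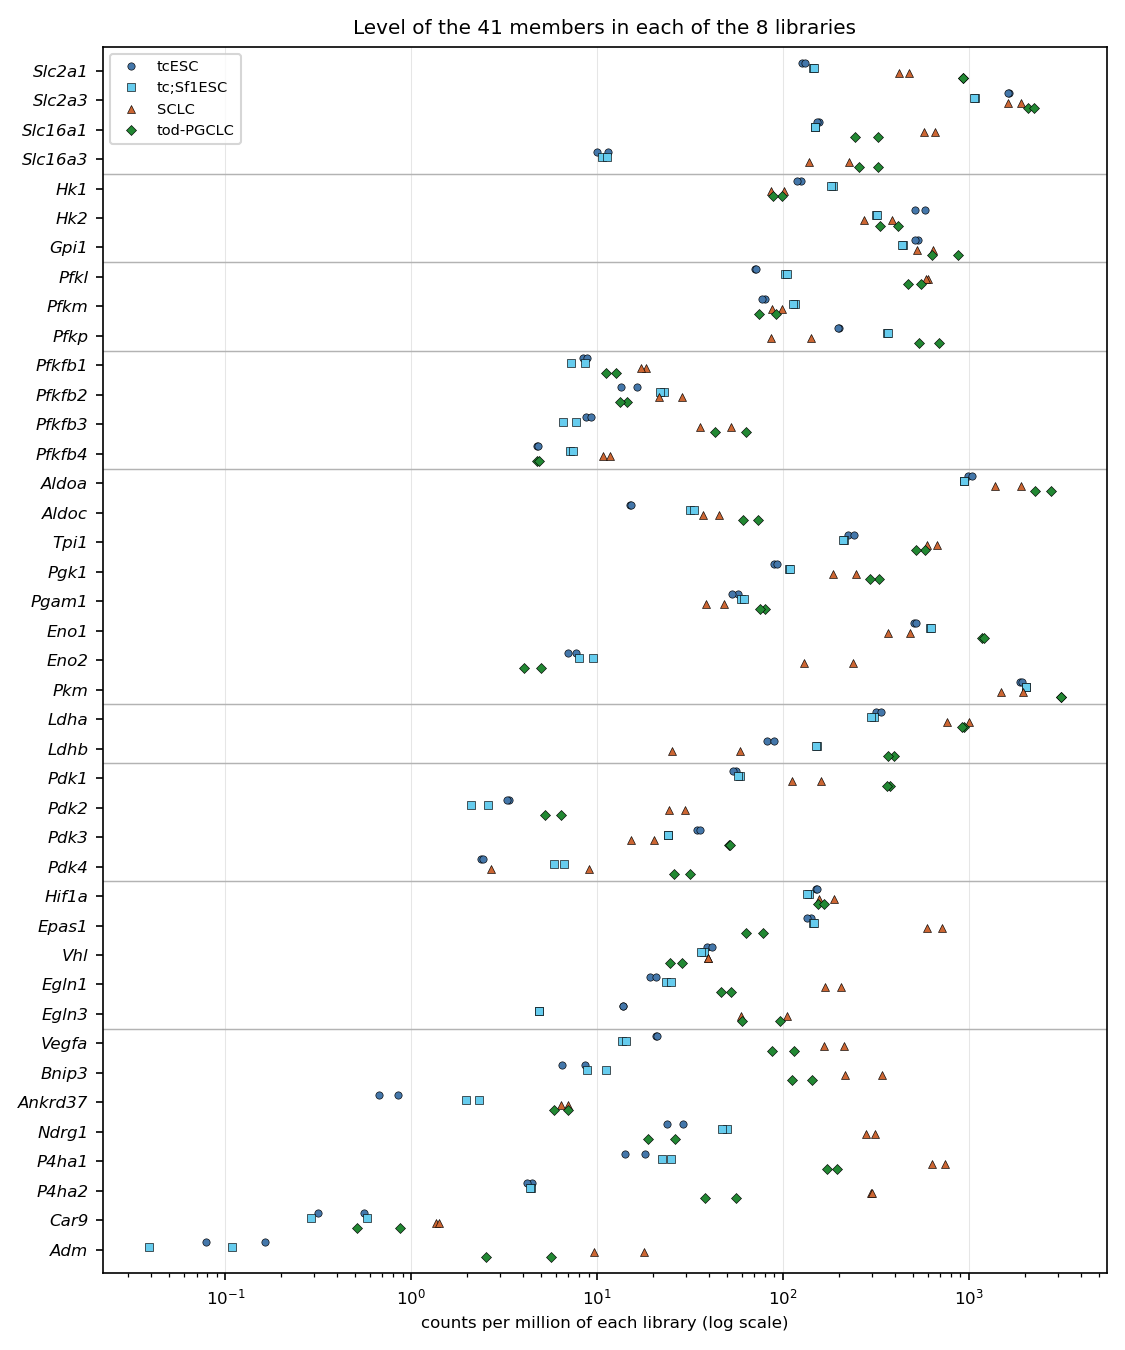
Level of each of the 41 members in the 8 libraries, in CPM on a log axis, with members down the page by role and a grey line between roles. Each point is 1 library, and 22 members have all SCLC and tod-PGCLC points to the right of the 4 ESC points.

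Carriers came first in the order of the pathway. Slc2a1, the basal glucose carrier GLUT1, had 127 and 131 CPM in tcESCs, 146 and 147 in tc;Sf1ESCs, 474 and 419.5 in SCLCs and 927 and 927 in tod-PGCLCs. Both ESC lines were low, SCLCs higher and tod-PGCLCs highest, with no overlap. The log2 fold change was 1.66 ± 0.07 (SE, edgeR adjusted p = 1.76e-06) in SCLCs over tc;Sf1ESCs and 2.77 ± 0.07 (SE, edgeR adjusted p = 6.59e-08) in tod-PGCLCs over tcESCs. Slc2a3, which encodes the neuronal glucose carrier GLUT3, was the more abundant one per exon length in every library and was called in no comparison, at 1070 to 2256 CPM. Slc2a1 made up 14.1% ± 0.373 (SD, n = 2) of the pair in tcESCs, 34.5% ± 0.643 in SCLCs and 46.9% ± 1.39 in tod-PGCLCs, on counts divided by exon length.

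Both lactate carriers were called higher in SCLCs than in each ESC line. Slc16a1, or MCT1, had 156 and 153 CPM in tcESCs, 148 and 149 in tc;Sf1ESCs, 576 and 658 in SCLCs and 243 and 326 in tod-PGCLCs. SCLC libraries stood highest and tod-PGCLC libraries between them and the ESCs, and the log2 fold change of tod-PGCLCs over SCLCs was -1.25 ± 0.13 (SE, edgeR adjusted p = 3.10e-05). Slc16a3, or MCT4, the carrier of lactate-exporting tissues, had 11.4 and 9.94 CPM in tcESCs, 10.6 and 11.3 in tc;Sf1ESCs, 227 and 137 in SCLCs and 323 and 255 in tod-PGCLCs. It was near 10 CPM in both ESC lines and rose in both sorted populations, by a log2 fold change of 4.1 ± 0.25 (SE, edgeR adjusted p = 6.77e-06) in SCLCs over tc;Sf1ESCs and 4.69 ± 0.25 (SE, edgeR adjusted p = 1.49e-06) in tod-PGCLCs over tcESCs. The tod-PGCLC libraries lay above the SCLC libraries without a call, at a log2 fold change of 0.53 ± 0.20 (SE, edgeR adjusted p = 0.0427). Its gene lies on chromosome 11, where all genes had a median log2 difference of 0.53 in that comparison and of 0.52 in tod-PGCLCs over tcESCs.

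Hk1, Hk2 and Gpi1 act in the opening steps, and only Hk1 was called, in 1 comparison. Hk2, a hexokinase bound to mitochondria, and Gpi1, the isomerase after it, were called in no comparison, at 272 to 578 and 435 to 869 CPM. Hk1, the widespread hexokinase, had 124 and 119 CPM in tcESCs, 186 and 182 in tc;Sf1ESCs, 101 and 85.7 in SCLCs and 98.6 and 88.1 in tod-PGCLCs. The highest values were those of tc;Sf1ESCs, and tod-PGCLCs were lower than these by a log2 fold change of -1.07 ± 0.09 (SE, edgeR adjusted p = 1.50e-05), a call lost without tod-PGCLC replicate 2 (-0.98). None of the 3 genes was called in SCLCs against either ESC line, beside 42.7% of all genes over tcESCs and 42.2% over tc;Sf1ESCs. With 3 genes this does not set the opening steps apart.

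Phosphofructokinase commits sugar to glycolysis, and in SCLCs over tc;Sf1ESCs 1 of its 3 forms was called higher and 1 lower, beside 24.1% and 18.1% of all genes. Pfkl, the liver form, had 70.6 and 71.8 CPM in tcESCs, 102 and 105 in tc;Sf1ESCs, 601 and 590.0 in SCLCs and 551 and 468 in tod-PGCLCs. Both sorted populations were above both ESC lines, with a log2 fold change of 2.57 ± 0.06 (SE, edgeR adjusted p = 1.44e-07) in SCLCs over tc;Sf1ESCs and 2.77 ± 0.09 (SE, edgeR adjusted p = 1.55e-07) in tod-PGCLCs over tcESCs. Pfkp, the platelet form, had 201 and 198 CPM in tcESCs, 361 and 367 in tc;Sf1ESCs, 142 and 86.6 in SCLCs and 692 and 542 in tod-PGCLCs. It was lowest in SCLCs and highest in tod-PGCLCs, which differed by a log2 fold change of 2.3 ± 0.21 (SE, edgeR adjusted p = 1.44e-05). Against tc;Sf1ESCs the SCLCs fell, with a log2 fold change of -1.62 ± 0.20 (SE, edgeR adjusted p = 2.50e-04), while the difference from tcESCs, -0.74 ± 0.20 (SE, edgeR adjusted p = 0.0115), was not called. tod-PGCLCs were called higher than tcESCs, at 1.55 ± 0.20 (SE, edgeR adjusted p = 1.96e-04), and were not called against tc;Sf1ESCs. Pfkm, the muscle form, was called nowhere, at 74.7 to 116 CPM. Per exon length Pfkl made up 21.7% ± 0.556 of the 3 forms in tcESCs, 20.2% ± 0.365 in tc;Sf1ESCs, 71.0% ± 0.138 in SCLCs and 51.9% ± 1.19 in tod-PGCLCs (SD, n = 2).

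PFKFB enzymes make and break down the sugar bisphosphate that switches phosphofructokinase on. Pfkfb3, the form with the strongest kinase activity and a known HIF target, had 8.74 and 9.32 CPM in tcESCs, 6.56 and 7.73 in tc;Sf1ESCs, 52.6 and 36 in SCLCs and 63.5 and 42.8 in tod-PGCLCs. The SCLC and tod-PGCLC ranges overlapped each other and lay above all ESC libraries, with a log2 fold change of 2.68 ± 0.20 (SE, edgeR adjusted p = 1.94e-05) in SCLCs over tc;Sf1ESCs and 2.48 ± 0.23 (SE, edgeR adjusted p = 3.27e-05) in tod-PGCLCs over tcESCs. Pfkfb1, the liver form, had 8.42 and 8.77 CPM in tcESCs, 8.6 and 7.26 in tc;Sf1ESCs, 18.4 and 17.3 in SCLCs and 11.1 and 12.6 in tod-PGCLCs. SCLCs were highest, by a log2 fold change of 1.22 ± 0.13 (SE, edgeR adjusted p = 1.31e-04) over tc;Sf1ESCs, and the smaller difference of tod-PGCLCs was not called. Pfkfb4, the testis form, had 4.72 and 4.79 CPM in tcESCs, 7.17 and 7.37 in tc;Sf1ESCs, 10.8 and 11.7 in SCLCs and 4.76 and 4.86 in tod-PGCLCs. Its values were highest in SCLCs, with a log2 fold change of 1.3 ± 0.14 (SE, edgeR adjusted p = 1.21e-04) over tcESCs that was not called over tc;Sf1ESCs, at 0.68 ± 0.14 (SE, edgeR adjusted p = 0.00306), and tod-PGCLCs were within the tcESC range or just above it. Pfkfb2, the heart form, was called in no comparison, at 13.3 to 28.7 CPM.

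**Figure D2:**
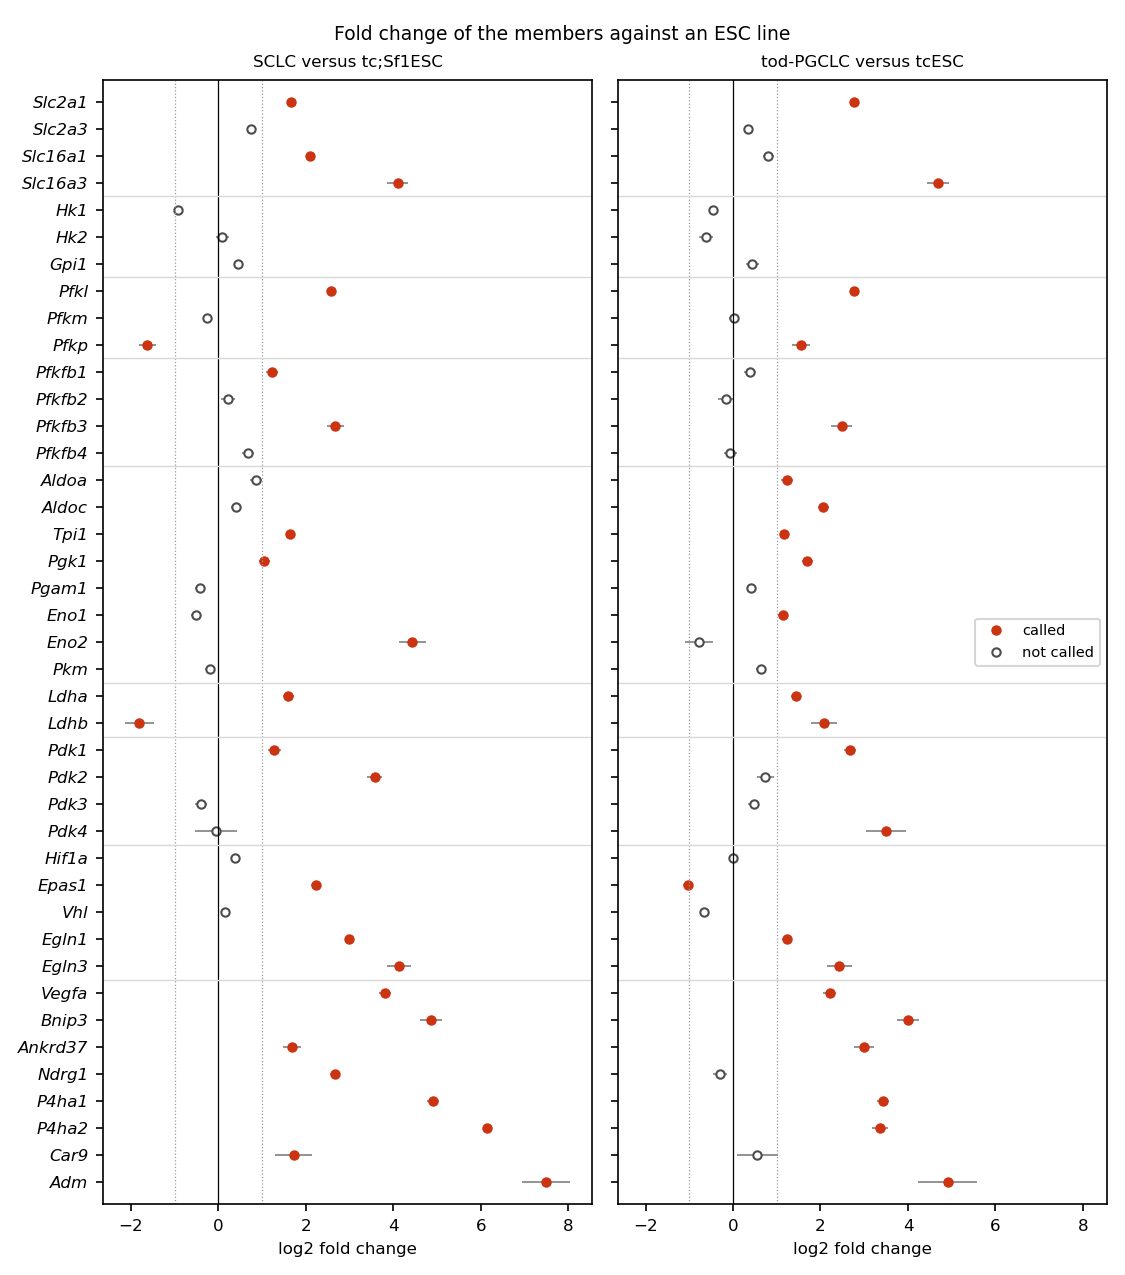
Log2 fold change of each member with its standard error, in SCLCs over the tc;Sf1ESCs they came from (left) and in tod-PGCLCs over tcESCs (right), with filled points for called genes and dotted lines at a 2-fold change. On the left 23 members are called higher and 2 lower, and on the right 22 higher and 1 lower.

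Of the 8 members from aldolase to pyruvate kinase, 3 were called higher in SCLCs over tc;Sf1ESCs, beside 24.1% of all genes, and 5 in tod-PGCLCs over tcESCs, beside 18.1%. Aldoa, the main aldolase, had 994 and 1038 CPM in tcESCs, 937 and 939 in tc;Sf1ESCs, 1899 and 1382 in SCLCs and 2756 and 2272 in tod-PGCLCs. All SCLC and tod-PGCLC libraries were above the ESCs, but only the tod-PGCLC difference was called, at a log2 fold change of 1.23 ± 0.14 (SE, edgeR adjusted p = 1.05e-04) over tcESCs, beside 0.75 ± 0.14 (SE, edgeR adjusted p = 0.00177) for SCLCs. Aldoc, the brain aldolase, had 15.1 and 15.3 CPM in tcESCs, 31.8 and 33 in tc;Sf1ESCs, 45.2 and 37.3 in SCLCs and 73.1 and 60.6 in tod-PGCLCs. It was higher in every other group than in tcESCs, and the rise in tc;Sf1ESCs over tcESCs, a log2 fold change of 1.11 ± 0.11 (SE, edgeR adjusted p = 5.99e-04), was called. Tpi1, which interconverts the 3-carbon sugars, had 224 and 242 CPM in tcESCs, 213 and 211 in tc;Sf1ESCs, 670.3 and 598 in SCLCs and 577 and 520.2 in tod-PGCLCs. SCLC libraries were highest, and the log2 fold change was 1.63 ± 0.08 (SE, edgeR adjusted p = 2.26e-06) over tc;Sf1ESCs and, for tod-PGCLCs over tcESCs, 1.16 ± 0.08 (SE, edgeR adjusted p = 6.51e-06).

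Pgk1, the first ATP-forming step, had 89.4 and 92.6 CPM in tcESCs, 108 and 109 in tc;Sf1ESCs, 249 and 185 in SCLCs and 328 and 295 in tod-PGCLCs. Both sorted populations were above the ESCs, with tod-PGCLCs above SCLCs. The SCLC difference over tc;Sf1ESCs was a log2 fold change of 1.05 ± 0.13 (SE, edgeR adjusted p = 2.30e-04) and was no longer called without SCLC replicate 1 (0.84), while tod-PGCLCs over tcESCs stood at 1.7 ± 0.13 (SE, edgeR adjusted p = 8.48e-06). Eno1, the widespread enolase, had 509 and 517 CPM in tcESCs, 619 and 625 in tc;Sf1ESCs, 481 and 366 in SCLCs and 1172 and 1199 in tod-PGCLCs. The tod-PGCLC libraries alone stood above the others, by a log2 fold change of 1.14 ± 0.11 (SE, edgeR adjusted p = 3.92e-05) over tcESCs and 1.35 ± 0.11 (SE, edgeR adjusted p = 8.32e-06) over SCLCs, while 0.84 ± 0.11 (SE, edgeR adjusted p = 1.76e-04) over tc;Sf1ESCs was not called. Eno2, the neuronal enolase, had 6.97 and 7.69 CPM in tcESCs, 8.02 and 9.54 in tc;Sf1ESCs, 239 and 129 in SCLCs and 5.01 and 4.03 in tod-PGCLCs. SCLCs were far above all other libraries, by a log2 fold change of 4.44 ± 0.30 (SE, edgeR adjusted p = 1.26e-05) over tc;Sf1ESCs, and tod-PGCLCs were below all ESC libraries. The lower level in tod-PGCLCs was called against tc;Sf1ESCs, at a log2 fold change of -1.05 ± 0.32 (SE, edgeR adjusted p = 0.0171), and no longer without tc;Sf1ESC replicate 2 (-0.93) or tod-PGCLC replicate 2 (-0.89).

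Among the enolase counts per exon length, Eno2 took 1.61% ± 0.0925 in tcESCs, 1.59% ± 0.18 in tc;Sf1ESCs, 32.5% ± 5.26 in SCLCs and 0.434% ± 0.0733 in tod-PGCLCs (SD, n = 2). Pgam1 and Pkm, phosphoglycerate mutase and pyruvate kinase, were called in no comparison, at 38.4 to 80.3 and 1484 to 3146 CPM. The counts of Pkm are summed over the gene and do not separate its M1 and M2 forms. Aldoa, Pgk1, Pgam1, Ldha and Vhl have pseudogene copies annotated under their own names, and copies under other names were not searched for. Since reads with more than 1 position were not counted, levels of members with copies can be too low. Shares within families that rest on such members can be off for the same reason.

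The lactate dehydrogenase genes moved apart in SCLCs over tc;Sf1ESCs. Ldha, the form of lactate-producing tissues, had 316 and 336 CPM in tcESCs, 307 and 297 in tc;Sf1ESCs, 1004 and 760.2 in SCLCs and 944 and 917 in tod-PGCLCs. SCLC and tod-PGCLC ranges overlapped each other and lay above all ESC libraries, with a log2 fold change of 1.6 ± 0.13 (SE, edgeR adjusted p = 2.46e-05) in SCLCs over tc;Sf1ESCs and 1.44 ± 0.11 (SE, edgeR adjusted p = 1.30e-05) in tod-PGCLCs over tcESCs. Ldhb, the form of lactate-using tissues, had 82.5 and 90.0 CPM in tcESCs, 153 and 151 in tc;Sf1ESCs, 59.1 and 25.2 in SCLCs and 396 and 369 in tod-PGCLCs. SCLC libraries were the lowest and tod-PGCLC libraries the highest, with a log2 fold change of 3.05 ± 0.31 (SE, edgeR adjusted p = 2.88e-05) between them and of -1.8 ± 0.33 (SE, edgeR adjusted p = 0.00185) in SCLCs over tc;Sf1ESCs. Over tcESCs the SCLC difference of -0.97 ± 0.32 (SE, edgeR adjusted p = 0.029) was not called. Its level differed more than 2-fold between the SCLC replicates. Ldha made up 64.2% ± 0.459 of the pair per exon length in tcESCs, 48.5% ± 0.357 in tc;Sf1ESCs, 91.2% ± 3.18 in SCLCs and 53.6% ± 0.735 in tod-PGCLCs (SD, n = 2).

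**Figure D3:**
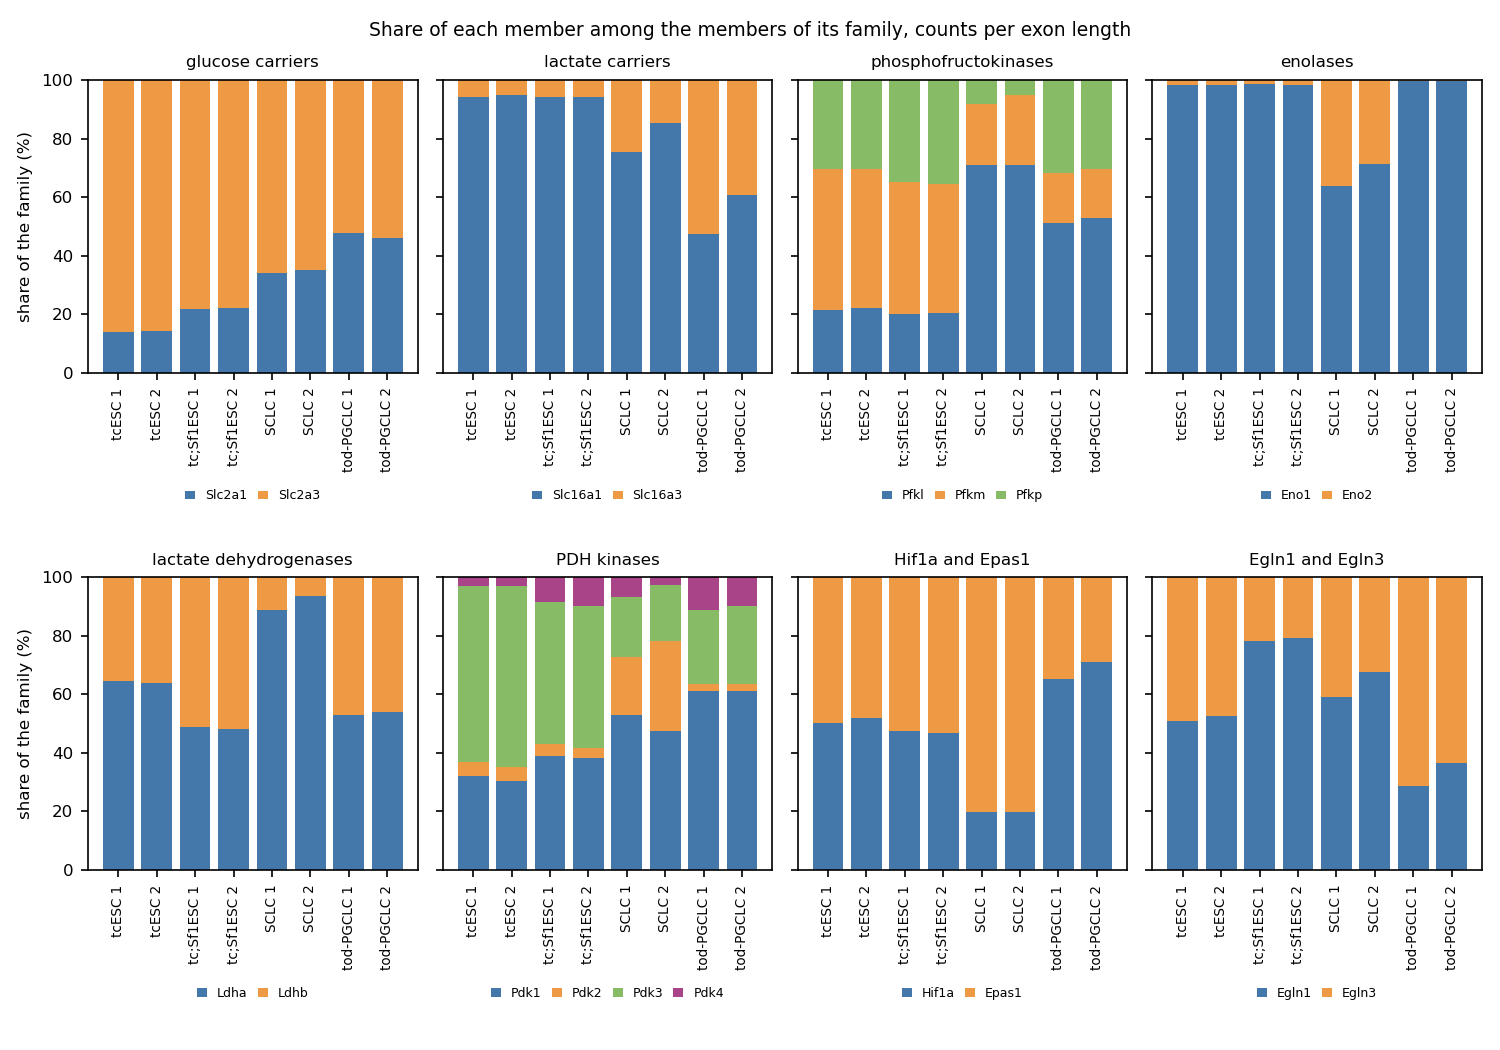
Share of each member among the members of its family in each library, from counts divided by the length of the gene's exons, with families of 2 to 4 genes stacked to 100%. In SCLCs, Pfkl, Eno2, Ldha, Pdk2 and Epas1 take larger shares than in the ESC libraries.

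Pyruvate dehydrogenase kinases switch pyruvate dehydrogenase off, and each form had its own pattern. Pdk1, a known HIF target, had 56.1 and 53.9 CPM in tcESCs, 58.7 and 57.5 in tc;Sf1ESCs, 159 and 112 in SCLCs and 377 and 362 in tod-PGCLCs. SCLCs were above the ESCs and tod-PGCLCs above SCLCs, with a log2 fold change of 1.27 ± 0.15 (SE, edgeR adjusted p = 1.95e-04) in SCLCs over tc;Sf1ESCs and 1.31 ± 0.13 (SE, edgeR adjusted p = 3.20e-05) in tod-PGCLCs over SCLCs. Pdk2, a widespread form, had 3.35 and 3.29 CPM in tcESCs, 2.58 and 2.1 in tc;Sf1ESCs, 24.3 and 29.6 in SCLCs and 6.39 and 5.27 in tod-PGCLCs. It was highest in SCLCs, with a log2 fold change of 3.58 ± 0.18 (SE, edgeR adjusted p = 2.70e-06) over tc;Sf1ESCs, and tod-PGCLCs were lower than SCLCs by -2.34 ± 0.17 (SE, edgeR adjusted p = 4.45e-06). Pdk3 had 34.7 and 35.9 CPM in tcESCs, 24 and 24.1 in tc;Sf1ESCs, 20.3 and 15.2 in SCLCs and 51.1 and 52 in tod-PGCLCs. It was lowest in SCLCs and highest in tod-PGCLCs, with a log2 fold change of 1.41 ± 0.13 (SE, edgeR adjusted p = 1.37e-05) between them, and the log2 fold change of tod-PGCLCs over tc;Sf1ESCs, 1.01 ± 0.12 (SE, edgeR adjusted p = 1.18e-04), was not called without tc;Sf1ESC replicate 1 (0.98).

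Pdk4, the form known to rise in fasting, had 2.36 and 2.44 CPM in tcESCs, 5.86 and 6.65 in tc;Sf1ESCs, 9.02 and 2.68 in SCLCs and 31.4 and 25.9 in tod-PGCLCs. tod-PGCLC libraries were above all others, by a log2 fold change of 3.5 ± 0.46 (SE, edgeR adjusted p = 2.07e-04) over tcESCs. The SCLC replicates differed more than 3-fold, and their called log2 fold change over tcESCs, 1.34 ± 0.51 (SE, edgeR adjusted p = 0.0469), was 0.24 without SCLC replicate 1 and was also not called without either tcESC replicate (adjusted p of 0.185 and 0.184). All 4 kinases were called higher in tod-PGCLCs than in tc;Sf1ESCs, beside 19.4% of all genes, and 2 of the 4, Pdk1 and Pdk4, than in tcESCs, beside 18.1%. Pdk2 and Pdk3 lie on chromosomes 11 and X, whose genes had medians of 0.47 and 0.28 in tod-PGCLCs over tc;Sf1ESCs, and 0.76 and 0.74 remained of their log2 fold changes, under the 2-fold limit, after these were taken off. Of 8 listed genes of the pyruvate dehydrogenase complex and its phosphatases, which undo the kinases, 1 was called higher and 1 lower in tod-PGCLCs over tc;Sf1ESCs, beside 19.4% and 13.3% of all genes. The called genes were the phosphatases Pdp1, at 1.69 ± 0.38 (SE, edgeR adjusted p = 0.00383), and Pdp2, at -1.65 ± 0.11 (SE, edgeR adjusted p = 3.76e-06). Against tcESCs only Pdp1 was called in tod-PGCLCs, at 1.58 ± 0.37 (SE, edgeR adjusted p = 0.00571), and tc;Sf1ESCs themselves stood above tcESCs in Pdp2, at 1.18 ± 0.10 (SE, edgeR adjusted p = 3.11e-04). In SCLCs over tc;Sf1ESCs, with 42.2% of all genes called, only Pdp2 was called among the 8, at -2.36 ± 0.10 (SE, edgeR adjusted p = 1.57e-06).

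Among the sensor genes, Hif1a, the widespread HIF alpha subunit, was called in no comparison. It had 150.3 and 152 CPM in tcESCs, 138 and 135 in tc;Sf1ESCs, 156 and 188 in SCLCs and 154 and 165 in tod-PGCLCs. Epas1, the second alpha subunit, HIF-2 alpha, had 141 and 134 CPM in tcESCs, 145 and 147 in tc;Sf1ESCs, 594 and 719.5 in SCLCs and 77.9 and 63.5 in tod-PGCLCs. SCLC libraries were highest and tod-PGCLC libraries lowest without overlap, with a log2 fold change of 2.22 ± 0.10 (SE, edgeR adjusted p = 1.91e-06) in SCLCs over tc;Sf1ESCs and -3.35 ± 0.13 (SE, edgeR adjusted p = 1.39e-07) in tod-PGCLCs over SCLCs. The lower level of tod-PGCLCs was called against tcESCs, at -1.03 ± 0.12 (SE, edgeR adjusted p = 9.63e-05), and against tc;Sf1ESCs, at -1.13 ± 0.12 (SE, edgeR adjusted p = 4.94e-05), and neither call remained without tod-PGCLC replicate 2 (-0.89 and -0.98). Of the summed Hif1a and Epas1 counts per exon length, Epas1 held 49.0% ± 1.21 in tcESCs, 52.9% ± 0.535 in tc;Sf1ESCs, 80.1% ± 0.0906 in SCLCs and 31.8% ± 4.21 in tod-PGCLCs (SD, n = 2).

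Egln1, the main oxygen-sensing hydroxylase, had 19.3 and 20.6 CPM in tcESCs, 23.3 and 25 in tc;Sf1ESCs, 205 and 168 in SCLCs and 52.4 and 46.5 in tod-PGCLCs. It was highest in SCLCs, intermediate in tod-PGCLCs and low in ESCs, with a log2 fold change of 3.0 ± 0.11 (SE, edgeR adjusted p = 8.83e-07) in SCLCs over tc;Sf1ESCs and 1.24 ± 0.11 (SE, edgeR adjusted p = 2.66e-05) in tod-PGCLCs over tcESCs. Egln3, the hydroxylase most strongly induced by HIF, had 13.9 and 13.7 CPM in tcESCs, 4.86 and 4.88 in tc;Sf1ESCs, 105 and 59.5 in SCLCs and 96.7 and 60.0 in tod-PGCLCs. The ESC lines differed without overlap, tc;Sf1ESCs being lower by a log2 fold change of -1.49 ± 0.28 (SE, edgeR adjusted p = 0.00734), a call lost without either tcESC replicate (adjusted p 0.0624 for each). SCLC and tod-PGCLC libraries overlapped each other and were above both lines, with a log2 fold change of 4.13 ± 0.28 (SE, edgeR adjusted p = 1.21e-05) and 2.43 ± 0.29 (SE, edgeR adjusted p = 1.23e-04) over tc;Sf1ESCs and tcESCs, respectively. Vhl, which marks HIF for destruction, was called nowhere, at 24.6 to 41.7 CPM. Of 11 further listed genes of the HIF machinery, Hif3a, another alpha subunit, was the only one called in SCLCs over tc;Sf1ESCs, at 2.11 ± 0.20 (SE, edgeR adjusted p = 6.64e-05), and in tod-PGCLCs over tcESCs, at 1.84 ± 0.19 (SE, edgeR adjusted p = 5.12e-05), where 42.2% and 29.4% of all genes were called. It had a mean of 3.46 ± 0.474 CPM in tc;Sf1ESCs, 14.5 ± 2.94 in SCLCs and 16.7 ± 1.60 in tod-PGCLCs (SD, n = 2).

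The HIF targets outside glycolysis had the largest median of the 9 roles in SCLCs over each ESC line. All 8 were called higher in SCLCs than in each ESC line, beside 24.3% and 24.1% of all genes, with a median log2 fold change of 4.41 over tcESCs and 4.34 over tc;Sf1ESCs. In tod-PGCLCs 6 of the 8 were higher than in tcESCs, beside 18.1% of all genes, with a median of 3.18. Against tc;Sf1ESCs 6 were higher and 1 lower, beside 19.4% and 13.3%, with a median of 2.82. Visceral endoderm and trophectoderm markers were higher in the same SCLC libraries, with the sums given above, and visceral endoderm is known as a source of Vegfa, and their part in these differences was not tested.

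Vegfa, the growth factor of blood vessels, had 20.7 and 21 CPM in tcESCs, 13.7 and 14.3 in tc;Sf1ESCs, 213 and 166 in SCLCs and 115 and 87.7 in tod-PGCLCs. SCLCs were highest and tod-PGCLCs next, with a log2 fold change of 3.81 ± 0.13 (SE, edgeR adjusted p = 6.63e-07) in SCLCs over tc;Sf1ESCs and 2.21 ± 0.15 (SE, edgeR adjusted p = 6.01e-06) in tod-PGCLCs over tcESCs. Bnip3, a mitochondrial protein of mitophagy, had 6.49 and 8.57 CPM in tcESCs, 11.1 and 8.78 in tc;Sf1ESCs, 342 and 216 in SCLCs and 144 and 112 in tod-PGCLCs. Its order was the same, with a log2 fold change of 4.86 ± 0.26 (SE, edgeR adjusted p = 4.06e-06) in SCLCs and 4.0 ± 0.26 (SE, edgeR adjusted p = 4.17e-06) in tod-PGCLCs over the same lines. The lower levels of tod-PGCLCs than SCLCs were called for Vegfa, at -1.03 ± 0.14 (SE, edgeR adjusted p = 1.92e-04), and Bnip3, at -1.26 ± 0.21 (SE, edgeR adjusted p = 7.17e-04), and not without SCLC replicate 1 (-0.86 and -0.91) or, for Vegfa, tod-PGCLC replicate 2 (-0.84).

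Ankrd37, an ankyrin repeat protein induced by HIF, was scarce throughout and had 0.669 and 0.847 CPM in tcESCs, 1.97 and 2.31 in tc;Sf1ESCs, 6.94 and 6.43 in SCLCs and 6.97 and 5.87 in tod-PGCLCs. tcESCs were lowest, tc;Sf1ESCs higher and the sorted populations highest, with overlap between SCLCs and tod-PGCLCs. The rise in tc;Sf1ESCs over tcESCs was a log2 fold change of 1.5 ± 0.25 (SE, edgeR adjusted p = 0.00409). Genes of its chromosome, 8, had a median difference of 0.47 in that comparison, and 1.02 remained after that was taken off. Ankrd37 overlaps Ufsp2 and Lrp2bp on the other strand, and whether the counting used strand is not given in the sources used here. Ndrg1, a stress-induced protein of differentiating cells, had 23.8 and 29.1 CPM in tcESCs, 49.8 and 47.1 in tc;Sf1ESCs, 314 and 281 in SCLCs and 26.3 and 18.9 in tod-PGCLCs. It was high in SCLCs alone, with a log2 fold change of 2.67 ± 0.11 (SE, edgeR adjusted p = 1.22e-06) over tc;Sf1ESCs and of -3.85 ± 0.16 (SE, edgeR adjusted p = 2.22e-07) in tod-PGCLCs over SCLCs. tod-PGCLCs were lower than tc;Sf1ESCs by -1.19 ± 0.15 (SE, edgeR adjusted p = 1.55e-04), which was not called without tod-PGCLC replicate 2 (-0.96), and they overlapped tcESCs.

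P4ha1 and P4ha2 encode the catalytic subunits of collagen prolyl 4-hydroxylase. P4ha1 had 14.2 and 18.1 CPM in tcESCs, 22.3 and 24.9 in tc;Sf1ESCs, 740.5 and 636 in SCLCs and 196 and 172 in tod-PGCLCs. Between tcESCs and SCLCs lay a fold of 44.4, and the log2 fold change over tc;Sf1ESCs was 4.92 ± 0.14 (SE, edgeR adjusted p = 3.47e-07) in SCLCs and 2.87 ± 0.13 (SE, edgeR adjusted p = 6.38e-07) in tod-PGCLCs. P4ha2 had 4.49 and 4.2 CPM in tcESCs, 4.4 and 4.37 in tc;Sf1ESCs, 298 and 301 in SCLCs and 55.7 and 38.1 in tod-PGCLCs. Both SCLC libraries stood far above the under 5 CPM of every ESC library, a log2 fold change of 6.14 ± 0.08 (SE, edgeR adjusted p = 3.60e-08) over tc;Sf1ESCs, and tod-PGCLCs stood between, at 3.36 ± 0.18 (SE, edgeR adjusted p = 1.58e-06) over tcESCs. The windows of both genes printed above hold 1 ACGTG each.

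Adm, the vessel-dilating peptide adrenomedullin, had 2 and 5 counts in tcESCs, 1 and 3 in tc;Sf1ESCs, 475 and 280 in SCLCs and 155 and 67 in tod-PGCLCs. The counts over each group, scaled to library totals, were 182 times higher in SCLCs than in tc;Sf1ESCs (exact 95% counting interval 70.8 to 670), and 32.9 times higher in tod-PGCLCs than in tcESCs (15.7 to 82.7). These intervals cover counting error only. SCLC libraries were above tod-PGCLC libraries, with a log2 fold change of -1.88 ± 0.40 (SE, edgeR adjusted p = 0.00262) in tod-PGCLCs over SCLCs. Car9, the carbonic anhydrase widely used as a hypoxia marker, averaged under 1 CPM over the 8 libraries and did not exceed 1.41 CPM in any. Its called rise in SCLCs, 1.72 ± 0.42 (SE, edgeR adjusted p = 0.00747) over tc;Sf1ESCs, was not called without tc;Sf1ESC replicate 2 (1.29), nor was that over tcESCs without tcESC replicate 1 (1.37).

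Between the sorted populations members differed in both directions. Of the 41 members, 6 were called higher and 13 lower in tod-PGCLCs than in SCLCs, where 38.0% of all genes were called, 18.5% higher and 19.5% lower. The 6 higher members were Pfkp, Eno1, Ldhb, Pdk1, Pdk3 and Pdk4. Of the 24 members from carriers to lactate dehydrogenases, 3 were called higher and 3 lower. Of the 4 pyruvate dehydrogenase kinases, 3 were called higher and 1 lower. The 13 lower members were 7 of the 8 HIF targets, Epas1 and Egln1, with Slc16a1, Pfkfb4, Eno2 and Pdk2. The median log2 fold change was -1.57 for the 8 HIF targets, 0.52 for the 8 members from aldolase to pyruvate kinase and -0.20 for all 41, beside 0.01 for all genes tested. Ankrd37 was the HIF target without a call. Visceral endoderm markers were lower in tod-PGCLCs for 10 of 10 and trophectoderm markers for 5 of 5 tested, and the growth in organoids and the ESC line also differed.

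The replicates of the sorted populations did not stand equally in the module. SCLC replicate 1 was above replicate 2 for 32 of the 41 members (78.0%), against 51.7% of all genes tested. Among the tod-PGCLC libraries replicate 1 was above replicate 2 for 33 (80.5%), against 49.98% of all genes. Visceral endoderm markers summed to 1767 CPM in SCLC replicate 1 and to 3158 in replicate 2, and ESC markers to 453 and 243. Their part in the difference between the replicates was not tested.

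Between the ESC lines few calls were made, among the members as among all genes. Of the 41, 2 were called higher and 1 lower in tc;Sf1ESCs than in tcESCs (7.32% called), where 11.7% of all genes were called, 6.04% higher and 5.62% lower. Without the fold limit 15 members had an edgeR adjusted p under 0.05, 10 higher and 5 lower. The called members were Aldoc and Ankrd37, which were higher, and Egln3, which was lower, with the values given above. Smaller differences without overlap were common, since in 22 members both tc;Sf1ESC libraries lay above both tcESC libraries and in 14 below, as they did for 37.2% and 39.1% of all genes. Pdk4 had a log2 fold change of 1.39 ± 0.51 (SE, edgeR adjusted p = 0.076) and was not called. The 7 members on chromosome 6 stand beside a chromosome median of -0.31, and none was called. Hk2 was at -0.76 ± 0.15 (SE, edgeR adjusted p = 0.009) and Slc2a3 at -0.59 ± 0.09 (SE, edgeR adjusted p = 0.00255), while Tpi1 and Vhl were both at -0.12. Ldhb, at 0.83 ± 0.32 (SE, edgeR adjusted p = 0.0866), Eno2, at 0.27 ± 0.32 (SE, edgeR adjusted p = 0.56), and Pdk4, given above, had positive values.

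**Figure D4:**
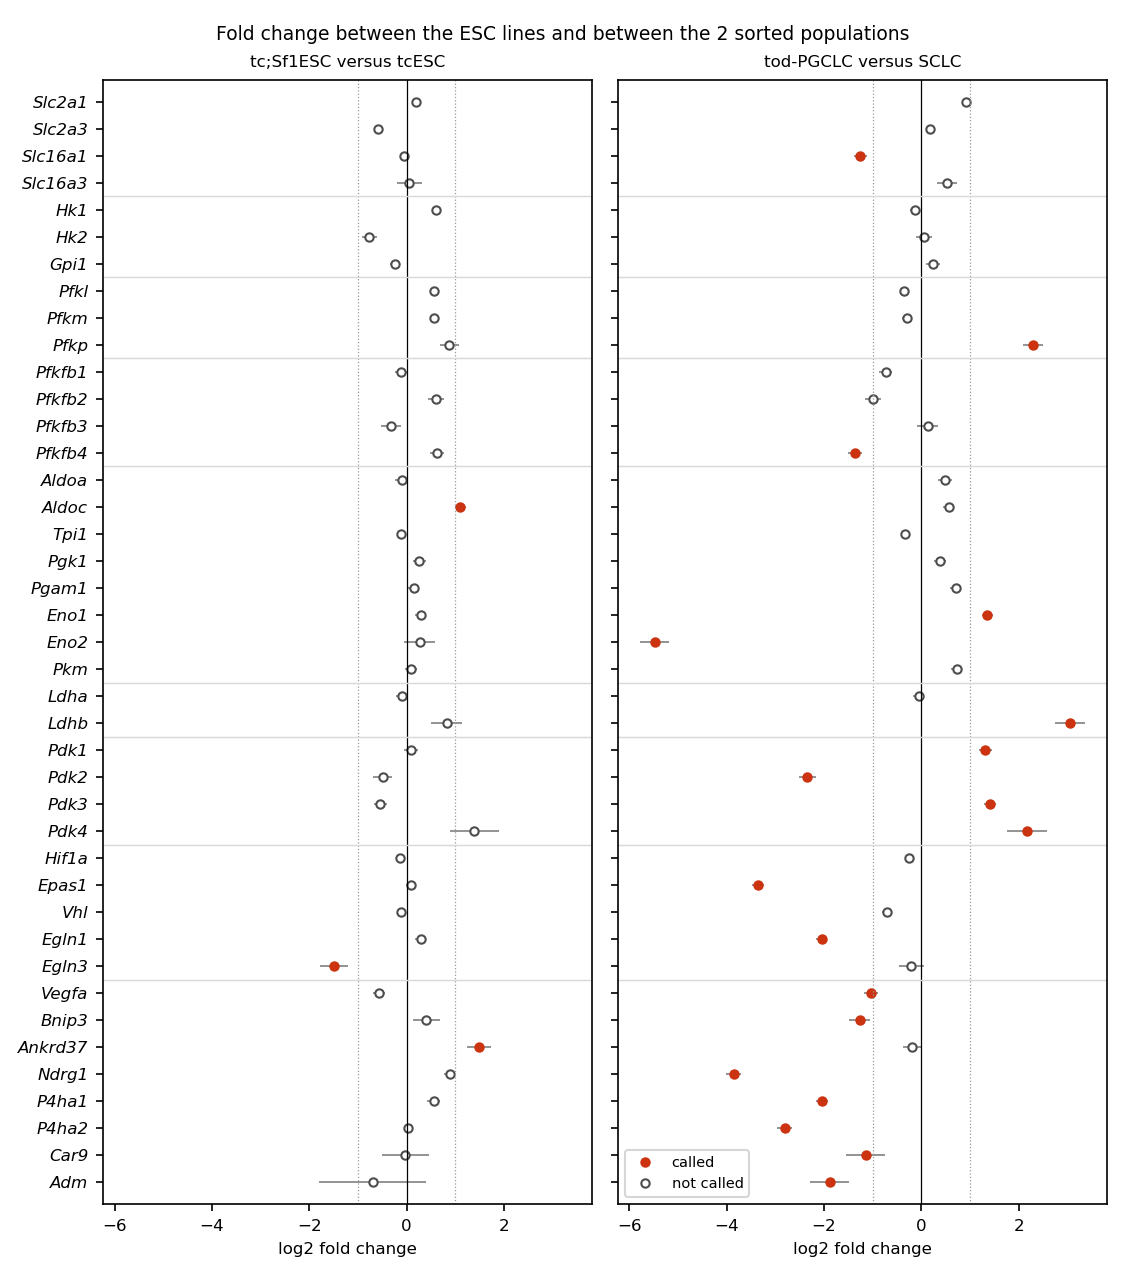
Log2 fold change of each member with its standard error, in tc;Sf1ESCs over tcESCs (left) and in tod-PGCLCs over SCLCs (right), with filled points for called genes and dotted lines at a 2-fold change. On the left 3 members are called, and on the right 7 of the 8 HIF targets at the foot of the panel are called lower.

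Beyond the 41 members, 30 genes of a list of further hypoxia response genes were tested. In SCLCs over tc;Sf1ESCs 19 were called higher and 3 lower, beside 24.1% and 18.1% of all genes, with a median log2 fold change of 1.35. In tod-PGCLCs over tcESCs 10 were higher and 1 lower, beside 18.1% and 11.2%, with a median of 0.55. In tod-PGCLCs over SCLCs 5 were higher and 11 lower, beside 18.5% and 19.5%, with a median of -0.76. Loxl2, which cross-links collagen, had a mean of 0.318 ± 0.0411 CPM in tc;Sf1ESCs, 295 ± 33.9 in SCLCs and 14.1 ± 4.0 in tod-PGCLCs (SD, n = 2), and a log2 fold change of 9.89 ± 0.17 (SE, edgeR adjusted p = 6.90e-08) in SCLCs over tc;Sf1ESCs. Flt1, a VEGF receptor of vessels, differed by 8.45 ± 0.15 (SE, edgeR adjusted p = 5.94e-08) between SCLCs and tcESCs. Of 4 listed endothelium markers, 1 was called higher and 2 lower in that comparison, beside 24.3% and 18.3% of all genes. Angptl4, an inhibitor of lipoprotein lipase, went the other way, with a log2 fold change of -3.71 ± 0.31 (SE, edgeR adjusted p = 3.13e-05) in SCLCs over tc;Sf1ESCs. Kdm3a, a histone demethylase, was the 1 lower gene in tod-PGCLCs over tcESCs, at -1.06 ± 0.13 (SE, edgeR adjusted p = 1.74e-04), and Car12, a carbonic anhydrase, rose there by 5.0 ± 0.34 (SE, edgeR adjusted p = 5.87e-06).

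A list of further glycolysis genes and sugar carriers had 24 genes tested. In SCLCs over tc;Sf1ESCs 9 were called higher and 3 lower, beside 24.1% and 18.1% of all genes, with a median log2 fold change of 0.41. In tod-PGCLCs over tcESCs 7 were higher and 2 lower, beside 18.1% and 11.2%, with a median of 0.70. Hkdc1, a hexokinase-like protein, had 2 and 2 counts in tc;Sf1ESCs, 7452 and 8163 in SCLCs and 37 and 78 in tod-PGCLCs. Tigar, a phosphatase that slows glycolysis, was lower in SCLCs over tc;Sf1ESCs, at -2.62 ± 0.09 (SE, edgeR adjusted p = 6.51e-07), and in tod-PGCLCs over tcESCs, at -1.81 ± 0.08 (SE, edgeR adjusted p = 7.78e-07). Gapdh, the dehydrogenase of the pathway, was at 980 ± 48.4 CPM in tcESCs, 856 ± 13.1 in tc;Sf1ESCs, 759 ± 137 in SCLCs and 1681 ± 37.0 in tod-PGCLCs (SD, n = 2), and was called in neither of these comparisons.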

How the data were processed

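RNA of 8 libraries, 2 in each of 4 groups, was sequenced, and the authors filtered the reads with Trim Galore, aligned them to GRCm38 with STAR and counted them with HTSeq. The deposited values are raw counts per Ensembl gene, and versions other than STAR 2.4.0 are not given in the sources used here. Reads set aside as ambiguous, not unique, unaligned or on no feature, 35.6% to 41.6% of a library's total, were left out of library sizes and tests.

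The members and all lists were chosen with earlier results of these data known. Gene names and exons came from GENCODE M21. In R 4.3.3 with edgeR 4.0.16, genes with a mean count above 10 were fitted after TMM normalization, 16481 genes over the 6 libraries without tod-PGCLCs for comparisons among these, and 16707 genes over 8 libraries for those with tod-PGCLCs. Genes were called at a fold change greater than 2 and a Benjamini-Hochberg adjusted p under 0.05 by the quasi-likelihood test, after a check on simulated data. CPM values were scaled to the counts on genes. Standard errors were the log2 fold change over the square root of its F. Shares within families used counts per length of the joined exons. Members called at least once with a mean of at least 1 CPM were given with every library, and from the other lists genes could be named from the 2 largest increases and decreases with at least 1 CPM. Gapdh, and the counts of the cell markers, were chosen after their values were seen. As alternatives, DESeq2 1.42.0 replaced edgeR, size factors came from RLE or from library totals alone, low genes were filtered by filterByExpr or by a minimum of 1 count, the fit held all 8 libraries or only the 4 compared, the adjusted p limit was 0.01, the null was a 2-fold change, replicate numbers entered as a block, libraries were left out in turn, the median of a gene's chromosome was taken off, and the longest transcript gave the length. No paper value was used, and depths and counting limits stand with the results.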

Additional observations from a re-analysis of the deposited data

How the results depend on the processing

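No called member changed direction under any alternative. The number of members called stayed within 1.5 times the reported number for every comparison and alternative that was refitted, except 1. Taking off the median of a gene's chromosome, run for tc;Sf1ESCs over tcESCs and, chosen after seeing the data, for the other 5 comparisons, left 5 of the 120 calls on members under a 2-fold change, those of Pfkfb1, Pgk1, Epas1, Pdk2 and Pdk3 in 1 comparison each. When edgeR tested against a 2-fold change, 0 members were called in tc;Sf1ESCs over tcESCs instead of 3, with 2 at an unadjusted p under 0.05, while DESeq2 called 4. Over the 6 comparisons together, the test against a 2-fold change ended 23 of the 120 calls on members. With 1 library left out at a time, the lone library of its group was assumed to vary like the other groups, and the members called ranged from 2 to 3 in tc;Sf1ESCs over tcESCs, from 24 to 29 and from 24 to 26 in SCLCs over tcESCs and over tc;Sf1ESCs, from 22 to 24 and from 22 to 25 in tod-PGCLCs over the same lines, and from 18 to 19 in tod-PGCLCs over SCLCs. With the replicate number as a block the counts in that order were 3, 27, 25, 23, 24 and 19. Over all genes, the deviations of same-numbered libraries had correlations of -0.0229 to 0.0624 over the 6 comparisons. Such correlations do not speak to the members alone. For most of them replicate 1 stood higher in both sorted populations, as given above. Scaling by library totals only shifted the median of all genes to 0.11, 0.10 and 0.15 in tod-PGCLCs over tcESCs, tc;Sf1ESCs and SCLCs, and added 5 calls on members, at log2 sizes of 1.01 to 1.05, and ended 6, among them the lower Epas1 in tod-PGCLCs over tcESCs (-0.96) and the lower Vegfa in tod-PGCLCs over SCLCs (-0.90). Dividing by the longest transcript lowered the share of Eno2 in SCLCs from 32.5% to 23.5% and raised that of Ldha from 91.2% to 94.0%. Differences under a 2-fold change and genes near 1 CPM, such as Car9, are limited by 2 libraries a group.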

Other observations

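The pentose phosphate pathway, which draws sugar from glycolysis to make NADPH and ribose, was described by 8 genes. Of these, 1 was called higher and 3 lower in SCLCs over tc;Sf1ESCs, beside 24.1% and 18.1% of all genes, and 2 were called lower in tod-PGCLCs over tcESCs, beside 11.2%, with median log2 fold changes of -0.67 and -0.21. Pgd, its decarboxylating dehydrogenase, had means of 544 ± 5.49 CPM in tcESCs, 374 ± 3.99 in tc;Sf1ESCs, 133 ± 50.3 in SCLCs and 165 ± 2.37 in tod-PGCLCs (SD, n = 2).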
